A study of Mus musculus with 12 samples.

Results

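The genes that build cholesterol and fatty acids were followed here in 4 stable 4T1 lines. 4T1 is a carcinoma line from the mouse mammary gland. The list named 39 genes of the mevalonate, sterol and fatty acid pathways with their regulators and exporters and was applied by gene symbol. Its genes were chosen with earlier results of these data known. Of these, 38 had a probe set annotated with a single gene symbol, out of 19937 genes so annotated, and the brightest probe set stood for each gene. The remaining gene, Acat2, was not analysed here.

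Expression was measured on Affymetrix Mouse Gene 1.0 ST arrays, with 3 arrays for each line. The ΔSAP line and the mutB1 line carried mutant Mkl1 constructs, the FL line carried the construct read here as full-length Mkl1, and the fourth was the control line. Mkl1, whose current symbol is Mrtfa, senses free actin and works as a coactivator with serum response factor (SRF). Its B1 region is known for contact with SRF, while the SAP domain resembles DNA-binding motifs of other proteins. All lines shared the 4T1 parent of BALB/cfC3H background and 48 h in DMEM with 0.03% fetal calf serum. The labels name 1 stable line per construct, so an effect of a construct and a difference between lines cannot be told apart. The sources used here do not state the vector or promoter. The p-values set a difference against the spread between triplicate cultures of the same line, pooled over the 4 lines.

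Cells make cholesterol from acetyl-CoA through mevalonate, farnesyl diphosphate, squalene and lanosterol. When sterols are scarce in the endoplasmic reticulum, Scap carries the transcription factors Srebf1 and Srebf2 to the Golgi for cleavage. The released factors switch on most enzymes of the pathway, and Insig1 holds the complex back when sterols are plentiful. Srebf2 is known mainly for cholesterol genes and Srebf1 mainly for fatty acid genes. Sterol excess activates the liver X receptors, which are known to raise the exporters Abca1 and Abcg1, the ubiquitin ligase Mylip and Srebf1.

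The deposited values were log2 expression values made with robust multi-array averaging (RMA). Array medians lay between 6.35 and 6.45, and Pearson's r between arrays within a line was 0.995 to 0.997 over the probe sets. Mrtfa stood at 11.94, 11.87 and 11.95 in the ΔSAP arrays, 11.41, 11.23 and 11.22 in the mutB1 arrays, 12.06, 12.14 and 12.03 in the FL arrays and 9.28, 9.28 and 9.26 in the control arrays. It was thus raised in each construct line and lower in mutB1 than in FL, by a log2 difference of -0.79 ± 0.06 (SE). Whether its probes cover the altered parts of the constructs was not checked. The simple epithelial keratins Krt8 and Krt18 averaged between 12.55 and 13.20 in every line, whereas the basal keratin Krt5 averaged between 5.21 and 5.33, below every array median. Other epithelial markers differed more between the lines and are given further below. Over the 12 arrays, all 6 measured markers of adipocytes and all 3 of hepatocytes, cell types with high lipid synthesis, averaged below every array median. So did 4 of 5 macrophage and 2 of 5 fibroblast markers. The mean log2 level of the adipocyte markers ranged over 5.23 to 5.40 in ΔSAP arrays, 5.26 to 5.33 in mutB1, 5.27 to 5.35 in FL and 5.23 to 5.39 in control.

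The first comparisons set mutB1 and ΔSAP against FL. With 1 line per construct they cannot assign a difference to the B1 region or the SAP domain, and Mrtfa was also lower in mutB1 than in FL. Cholesterol synthesis genes were higher in both mutant lines than in the FL line. Of the 17 measured enzymes from Hmgcs1 to Dhcr7, 17 rose in mutB1 over FL with a median log2 difference of 0.65, and 16 rose in ΔSAP over FL with a median of 0.60. At the adjusted p cutoff given below, 9.00% and 5.70% of all probe sets rose in these comparisons. Fatty acid genes moved less and less evenly, with medians of 0.24 and 0.16 over 13 genes. The core enzymes Fasn and Acaca did not pass the test in either comparison. Both comparisons share the FL arrays, so the values of the mutant lines are given side by side and their likeness is not a separate result.

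Members were counted as higher or lower at a limma adjusted p of 0.01 or less whatever the fold, with Benjamini-Hochberg adjustment across the 34760 probe sets. The shares of all probe sets given beside the members include dim probe sets and those without a gene symbol. Each member was the brightest probe set of its gene, and shares matched for signal were not counted. In mutB1 against FL, 31 of the 38 members were higher, where 9.00% of all probe sets were higher, and 2 were lower, where 8.82% of all were lower. In ΔSAP against FL, 27 were higher, where 5.70% of all probe sets were, and 0 were lower, where 5.73% of all were. At an unadjusted limma p under 0.05, 30 members were higher in ΔSAP than in FL and 2, Me1 and Scap, were lower. The share of all probe sets at this unadjusted cutoff was not counted. Over the 38 members the median log2 difference was 0.43 in mutB1 against FL and 0.39 in ΔSAP against FL, beside 0.00 and -0.03 over all probe sets. The FL line had the lowest of the 4 line means at 31 of the 38 members, and at 23.1% of all probe sets. An F test over the 4 lines in limma passed at adjusted p of at most 0.01 for 36 members, where 27.7% of all probe sets passed. The exceptions were Acaca (adjusted p = 0.0618) and Abcg1 (adjusted p = 0.83).

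The series design text added 2 filters to the same adjusted p, a minimum fold of 2 and a minimum mean of 4 on the log2 scale. By these, 6 members were higher in mutB1 than in FL, where 0.627% of all probe sets were. They were Pmvk, Mvd, Tm7sf2, Hsd17b7, Mylip and Acss2. 0 members were lower, where 0.972% of all were. By the same filters 0 members were higher in ΔSAP than in FL (0.288% of all probe sets) and 0 were lower (0.216%), although 27 were higher without these filters, and Mvd was 1.99-fold higher. The counts were also 0 in each direction for ΔSAP against mutB1 (0.883% of all probe sets higher and 0.541% lower), ΔSAP against control (0.958% and 0.386%), mutB1 against control (0.716% and 0.489%) and FL against control (1.21% and 0.621%). Without these filters the same limma fit called 2 members higher and 11 lower in ΔSAP against mutB1, 10 and 3 in ΔSAP against control, 15 and 2 in mutB1 against control and 2 and 29 in FL against control. The differences described here were therefore mostly smaller than 2-fold.

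**Figure D1:**
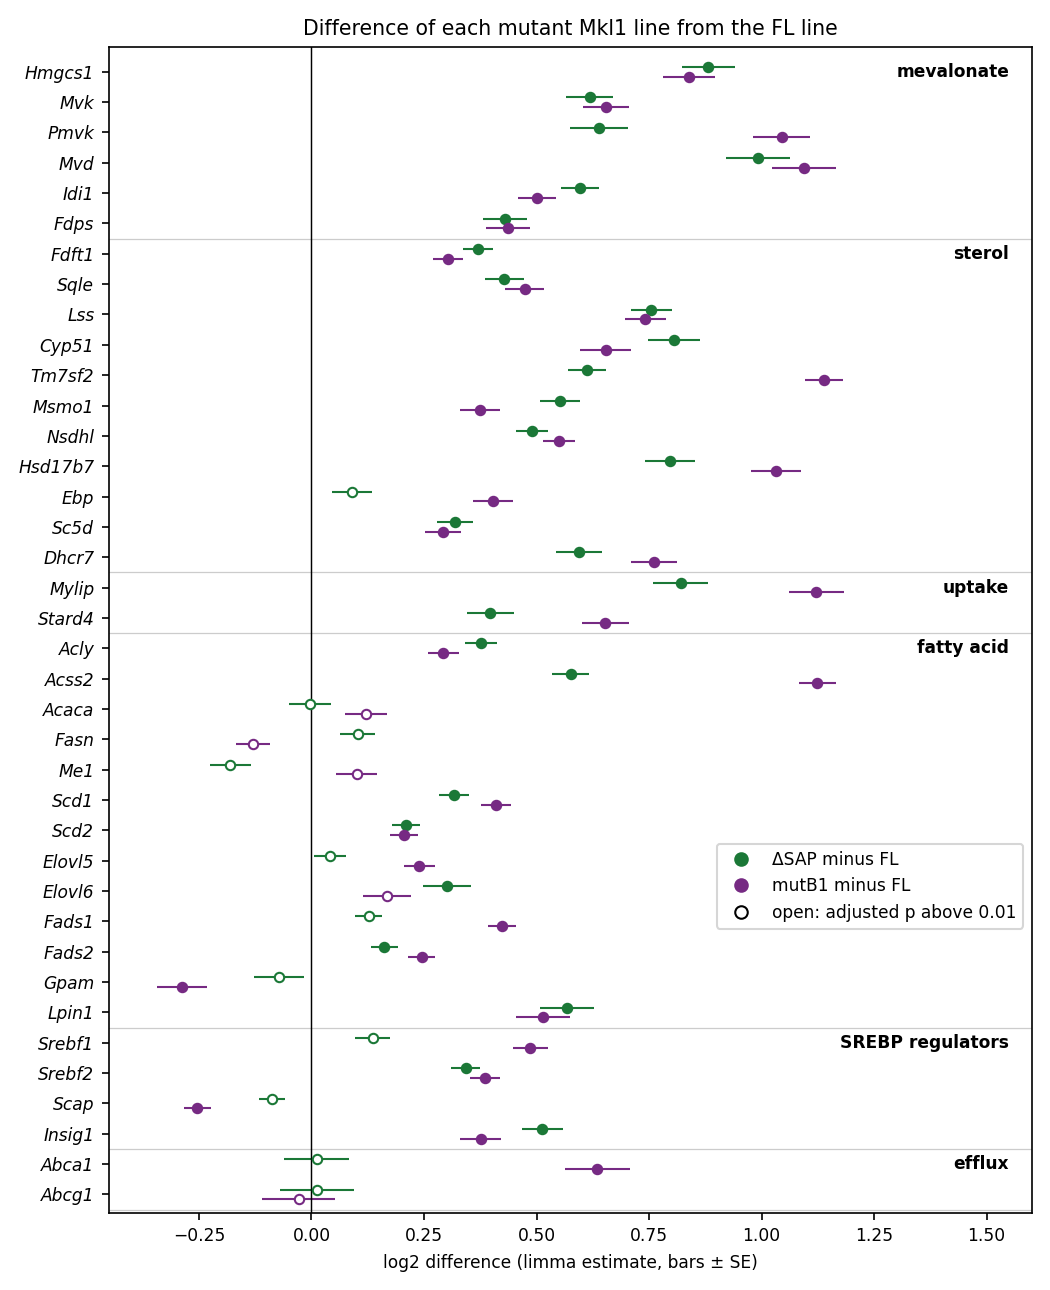
Each row is a member, grouped by step. Points give the limma log2 difference of the ΔSAP line (green) and the mutB1 line (purple) from the FL line. Bars are ± 1 SE from the limma fit of all 12 arrays, 3 per line. Open points had an adjusted p above 0.01. All mevalonate and sterol points lie right of 0, up to 1.14 for Tm7sf2, while the fatty acid points spread on both sides.

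The mevalonate step turns acetyl units into farnesyl diphosphate. Hmgcs1, the synthase that makes HMG-CoA, stood at 12.14, 12.19 and 12.10 in ΔSAP, 12.02, 12.15 and 12.12 in mutB1, 11.26, 11.16 and 11.35 in FL and 11.84, 11.76 and 11.88 in control. Both mutant lines lay above control, all FL arrays lay below it, and the mutant lines overlapped each other. Hmgcs1 was 1.79-fold higher in mutB1 than in FL (limma adjusted p = 2.55e-06) and 1.84-fold higher in ΔSAP than in FL (adjusted p = 5.85e-06). Pmvk, the kinase that adds the second phosphate to mevalonate, stood at 10.03, 9.98 and 10.03 in ΔSAP, 10.37, 10.42 and 10.47 in mutB1, 9.40, 9.27 and 9.45 in FL and 10.31, 10.12 and 10.33 in control. Here the mutant lines did not overlap, since ΔSAP lay between FL and control while mutB1 lay above control. Its log2 difference from FL was 1.04 ± 0.06 in mutB1 and 0.64 ± 0.06 in ΔSAP (SE, limma adjusted p = 1.04e-06 and 8.23e-05).

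Mvd, the decarboxylase that makes isopentenyl diphosphate, had the largest difference of the step in both comparisons. It stood at 10.02, 10.00 and 9.96 in ΔSAP, 10.10, 10.08 and 10.11 in mutB1, 9.02, 8.92 and 9.07 in FL and 9.84, 9.55 and 9.79 in control. All arrays of both mutant lines exceeded all control arrays, and the FL arrays lay lowest. Mvd was 2.13-fold higher in mutB1 than in FL and 1.99-fold higher in ΔSAP than in FL (limma adjusted p = 1.71e-06 and 1.05e-05). Idi1, the isomerase that makes dimethylallyl diphosphate, stood at 11.87, 11.90 and 11.89 in ΔSAP, 11.76, 11.85 and 11.78 in mutB1, 11.27, 11.26 and 11.34 in FL and 11.60, 11.51 and 11.61 in control. Its ΔSAP arrays were the highest of the 4 lines without overlap, though ΔSAP and mutB1 did not pass the test against each other (limma adjusted p = 0.137). A dimmer Idi1 probe set rose by 0.78 in mutB1 and by 0.67 in ΔSAP relative to FL, against 0.50 and 0.60 at the brightest one. The remaining members were Mvk, mevalonate kinase, with 0.65 ± 0.05 in mutB1 and 0.62 ± 0.05 in ΔSAP, and Fdps, farnesyl diphosphate synthase, with 0.44 ± 0.05 and 0.43 ± 0.05 (log2 difference from FL ± SE).

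The sterol step runs from squalene to cholesterol. All 11 members rose in mutB1 over FL (9.00% of all probe sets), by 0.29 to 1.14 on the log2 scale. In ΔSAP 10 of 11 rose over FL (5.70% of all). The exception was Ebp, the sterol isomerase, at 0.09 ± 0.04 in ΔSAP (limma adjusted p = 0.222) beside 0.40 ± 0.04 in mutB1. Tm7sf2, a sterol C14 reductase, stood at 9.68, 9.69 and 9.70 in ΔSAP, 10.23, 10.17 and 10.25 in mutB1, 9.10, 9.00 and 9.14 in FL and 9.74, 9.75 and 9.77 in control. The 4 lines did not overlap, with mutB1 highest, control and ΔSAP next to each other and FL lowest. Its rise over FL was 2.20-fold in mutB1 and 1.53-fold in ΔSAP (limma adjusted p = 2.66e-08 and 7.36e-06). Hsd17b7, the ketosteroid reductase of C4 demethylation, stood at 11.24, 11.25 and 11.23 in ΔSAP, 11.47, 11.50 and 11.46 in mutB1, 10.42, 10.36 and 10.54 in FL and 11.26, 11.09 and 11.21 in control. ΔSAP overlapped control there, and the FL arrays were lower than all others. The fold over FL was 2.05 in mutB1 and 1.74 in ΔSAP.

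Lss, the cyclase that makes lanosterol, and Cyp51, which removes its C14 methyl group, followed a different order of the lines. Lss stood at 11.72, 11.73 and 11.74 in ΔSAP, 11.69, 11.70 and 11.76 in mutB1, 10.96, 10.95 and 11.01 in FL and 11.54, 11.39 and 11.53 in control. The mutant lines overlapped each other and lay above control. Cyp51 stood at 11.53, 11.58 and 11.61 in ΔSAP, 11.35, 11.48 and 11.44 in mutB1, 10.75, 10.71 and 10.84 in FL and 11.19, 11.01 and 11.14 in control. ΔSAP was highest without overlap, by 0.15 ± 0.06 over mutB1, which did not pass the test (limma adjusted p = 0.084). The fold over FL was 1.67 for Lss and 1.57 for Cyp51 in mutB1, and 1.69 for Lss and 1.75 for Cyp51 in ΔSAP.

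The other sterol genes rose over FL by 0.29 to 0.76 in mutB1, Ebp included, and, Ebp apart, by 0.32 to 0.59 in ΔSAP. Dhcr7, the last reductase of the route, differed from FL by 0.76 ± 0.05 in mutB1 and 0.59 ± 0.05 in ΔSAP. Nsdhl, a dehydrogenase of C4 demethylation, differed by 0.55 ± 0.04 and 0.49 ± 0.04, and Msmo1, the C4 methyl oxidase, by 0.37 ± 0.04 and 0.55 ± 0.04. Sqle, squalene epoxidase, differed by 0.47 ± 0.04 and 0.43 ± 0.04, Fdft1, squalene synthase, by 0.30 ± 0.03 and 0.37 ± 0.03, and Sc5d, the C5 desaturase, by 0.29 ± 0.04 and 0.32 ± 0.04. In a fit of the 2 compared lines alone the ΔSAP difference of Sc5d no longer passed (limma adjusted p = 0.0106). The mutB1 arrays lay entirely above the FL arrays at all 17 mevalonate and sterol members, and so did the ΔSAP arrays. Over all probe sets such a separation occurred at 20.1% for mutB1 and at 14.2% for ΔSAP.

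Proliferation markers moved with part of this pattern. All 4 measured markers were higher in mutB1 than in FL, where 9.00% of all probe sets were. Mki67 was higher in both mutant lines, by 0.39 in mutB1 and 0.28 in ΔSAP (limma adjusted p = 6.14e-06 and 0.000151). Aurka was higher than in FL by 0.31 in mutB1 and lower in ΔSAP, with a difference of -0.26. The mean log2 level of the 4 measured proliferation markers ranged over 11.49 to 11.55 in ΔSAP arrays, 11.78 to 11.79 in mutB1, 11.48 to 11.52 in FL and 11.51 to 11.55 in control. Mammary epithelial markers moved too, with mean levels of 9.87 to 9.90 in ΔSAP, 8.30 to 8.39 in mutB1, 9.49 to 9.54 in FL and 9.31 to 9.39 in control. Of the 8, 1 was higher and 5 lower in mutB1 than in FL (9.00% and 8.82% of all probe sets). In ΔSAP against FL 6 were higher and 0 lower (5.70% and 5.73% of all). In mutB1 against FL, Krt7 was at -2.46, Krt19 at -2.24, Cdh1 at -2.23, Epcam at -1.86 and Krt14 at -0.62, while Krt8 was at 0.16. Epcam was at 1.88 in ΔSAP against FL. Of the 5 fibroblast markers Pdgfra, a receptor of platelet-derived growth factor, averaged 9.74 in ΔSAP, 10.87 in mutB1, 9.38 in FL and 10.76 in control. Like the sterol genes it was lowest in FL, and it differed from FL by 1.49 in mutB1 and 0.35 in ΔSAP (limma adjusted p = 6.13e-08 and 0.00233). Dcn ran the other way and was highest in FL, with differences of -0.29 in mutB1 and -0.49 in ΔSAP (limma adjusted p = 0.0372 and 0.00307). Col1a1, Col1a2 and Lum did not pass in either comparison. The mean level of the fibroblast markers ranged over 6.47 to 6.61 in ΔSAP, 6.83 to 6.88 in mutB1, 6.51 to 6.63 in FL and 6.82 to 6.94 in control, and Lum and Dcn averaged below every array median over the 12 arrays. The part of any of these markers in the sterol result was not tested.

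**Figure D2:**
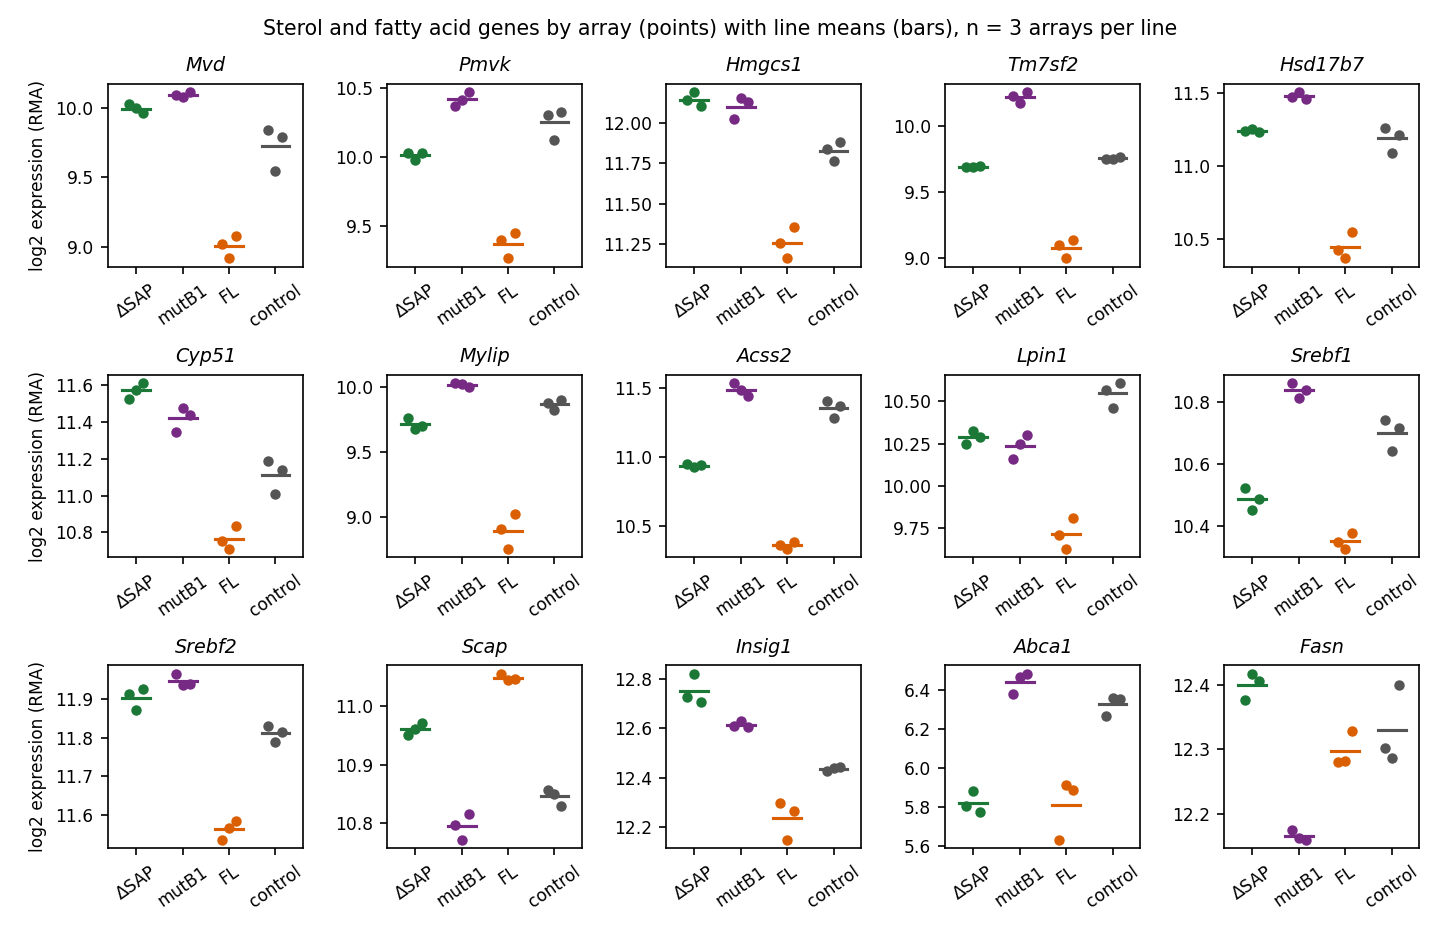
Points are log2 expression values of single arrays and bars are line means, for 15 members in the ΔSAP, mutB1, FL and control lines (3 arrays each). Each panel has its own vertical axis that does not start at 0. The FL line is lowest for most cholesterol genes, for example at 8.92 to 9.07 for Mvd, while Scap is highest in FL and Fasn is lowest in mutB1.

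Because the sterol genes moved together, their promoters are shown with the letters known to matter for this pathway. The core of the classical sterol regulatory element, which binds the Srebf proteins, was searched as TCACNCCA, and the box bound by the partner factor NF-Y as CCAAT, both on either strand. RefSeq promoter windows of build GRCm38.p6, from 250 bases before to 50 bases after the start, were found for 30 of the 38 members, and a gene with several windows was counted once. Below are the 200 bases before the start, 5′ to 3′ along the gene, with matches to either motif in capitals. A CCAAT match on the opposite strand reads ATTGG. Hmgcs1, Mvd, Msmo1 and Tm7sf2 rose in both mutant lines, Srebf2 is the regulator, and Fasn and Gpam did not follow the cholesterol genes. The stretches are chr13:119690151-119690350 (+ strand) for Hmgcs1, chr8:122443423-122443622 (- strand) for Mvd, chr8:64733579-64733778 (- strand) for Msmo1, chr19:6067851-6068050 (- strand) for Tm7sf2, chr15:82147069-82147268 (+ strand) for Srebf2, chr11:120824548-120824747 (- strand) for Fasn and chr19:55127239-55127438 (- strand) for Gpam, the last from the one of its 2 windows that holds TCACNCCA.
Hmgcs1: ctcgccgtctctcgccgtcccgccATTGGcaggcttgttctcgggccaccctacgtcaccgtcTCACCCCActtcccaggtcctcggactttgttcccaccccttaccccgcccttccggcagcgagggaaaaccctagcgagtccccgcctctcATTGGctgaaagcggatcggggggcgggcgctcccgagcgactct
Mvd: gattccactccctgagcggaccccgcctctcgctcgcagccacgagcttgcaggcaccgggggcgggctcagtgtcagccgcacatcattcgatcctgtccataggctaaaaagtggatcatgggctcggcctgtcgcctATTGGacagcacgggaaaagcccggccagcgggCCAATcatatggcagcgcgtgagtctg
Msmo1: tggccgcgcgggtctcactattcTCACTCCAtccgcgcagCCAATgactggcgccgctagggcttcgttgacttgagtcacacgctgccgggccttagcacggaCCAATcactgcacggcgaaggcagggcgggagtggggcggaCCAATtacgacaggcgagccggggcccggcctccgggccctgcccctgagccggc
Tm7sf2: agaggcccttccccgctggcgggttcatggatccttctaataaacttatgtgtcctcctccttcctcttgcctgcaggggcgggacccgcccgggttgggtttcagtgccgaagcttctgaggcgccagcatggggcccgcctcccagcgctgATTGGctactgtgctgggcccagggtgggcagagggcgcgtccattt
Srebf2: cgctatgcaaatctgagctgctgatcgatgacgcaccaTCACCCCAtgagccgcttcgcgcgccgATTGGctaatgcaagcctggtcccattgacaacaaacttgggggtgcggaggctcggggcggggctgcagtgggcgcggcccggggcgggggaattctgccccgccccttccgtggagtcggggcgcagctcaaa
Fasn: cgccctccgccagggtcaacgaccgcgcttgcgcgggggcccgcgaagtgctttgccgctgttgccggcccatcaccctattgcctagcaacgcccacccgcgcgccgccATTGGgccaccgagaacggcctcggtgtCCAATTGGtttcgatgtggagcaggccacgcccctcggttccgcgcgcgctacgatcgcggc
Gpam: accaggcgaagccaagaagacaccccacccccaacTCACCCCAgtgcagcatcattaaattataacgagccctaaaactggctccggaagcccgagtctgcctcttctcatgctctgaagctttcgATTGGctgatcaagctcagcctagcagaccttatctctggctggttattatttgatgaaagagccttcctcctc

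In Hmgcs1 the TCACNCCA match begins 137 bases before the start, in Msmo1 177, in Srebf2 162 and in Gpam 165. The run of 8 capitals in Fasn holds overlapping CCAAT matches on the 2 strands. In the full windows TCACNCCA occurred in 4 of 30 members, these same genes, beside 4.97% of all 27025 genes with a window. CCAAT occurred in 24 of 30 members (41.1% of all genes), in 14 of 14 mevalonate and sterol members and in 10 of the 16 others. The E-box CACGTG occurred in 7 of 30 members (8.09% of all genes), and GGGCGG, the GC box, in 24 of 30 (38.2% of all genes). A match is a description of the letters and not a site shown to be bound. The motif and the difference did not go together in each member, since Gpam held TCACNCCA and was lower in mutB1 than in FL, and Mvd and Tm7sf2 lacked it and rose.

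The uptake step held 2 members, Mylip and Stard4, and both rose in both mutant lines. Mylip, the ubiquitin ligase that limits lipoprotein uptake, stood at 9.77, 9.68 and 9.70 in ΔSAP, 10.03, 10.02 and 10.00 in mutB1, 8.91, 8.76 and 9.03 in FL and 9.88, 9.82 and 9.90 in control. No line overlapped another, with FL lowest and mutB1 highest. The fold over FL was 2.18 in mutB1 and 1.77 in ΔSAP (limma adjusted p = 4.6e-07 and 1.26e-05). Stard4, a carrier of cholesterol between membranes, stood at 10.24, 10.17 and 10.20 in ΔSAP, 10.43, 10.50 and 10.44 in mutB1, 9.79, 9.73 and 9.91 in FL and 10.25, 10.14 and 10.22 in control. ΔSAP overlapped control, mutB1 lay above and FL below. Its difference from FL was 0.65 ± 0.05 in mutB1 and 0.40 ± 0.05 in ΔSAP (limma adjusted p = 7.32e-06 and 0.000455). The Stard4 call in ΔSAP ended in a fit of the 2 compared lines alone (adjusted p = 0.0102).

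Among the SREBP regulators, the transcription factor genes and Insig1 were higher in mutB1 than in FL, and Scap was lower. Srebf2 stood at 11.91, 11.87 and 11.93 in ΔSAP, 11.97, 11.94 and 11.94 in mutB1, 11.54, 11.57 and 11.58 in FL and 11.83, 11.79 and 11.81 in control. The 4 lines did not overlap. Srebf2 rose over FL by 0.39 ± 0.03 in mutB1 and 0.34 ± 0.03 in ΔSAP (limma adjusted p = 1.08e-05 and 6.04e-05). Srebf1 stood at 10.52, 10.45 and 10.49 in ΔSAP, 10.86, 10.81 and 10.84 in mutB1, 10.35, 10.33 and 10.38 in FL and 10.74, 10.64 and 10.71 in control. ΔSAP lay just above FL and below control, in contrast to Srebf2. The difference from FL was 0.49 ± 0.04 in mutB1 (limma adjusted p = 6.81e-06) and 0.14 ± 0.04 in ΔSAP, which did not pass (adjusted p = 0.0344).

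Insig1, itself a known Srebf target, stood at 12.73, 12.82 and 12.71 in ΔSAP, 12.61, 12.63 and 12.60 in mutB1, 12.30, 12.15 and 12.27 in FL and 12.43, 12.44 and 12.44 in control. ΔSAP was highest and FL lowest, without overlap between any lines. The rise over FL was 0.38 ± 0.05 in mutB1 and 0.51 ± 0.05 in ΔSAP (limma adjusted p = 0.000145 and 4.02e-05). Scap, the escort, ran the other way, at 10.95, 10.96 and 10.97 in ΔSAP, 10.80, 10.77 and 10.82 in mutB1, 11.06, 11.04 and 11.05 in FL and 10.86, 10.85 and 10.83 in control. FL was its highest line and mutB1 its lowest. Scap was lower than in FL by a log2 difference of -0.25 ± 0.03 in mutB1 (limma adjusted p = 0.000109), while the ΔSAP difference of -0.09 ± 0.03 did not pass (adjusted p = 0.0733).

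Fatty acid genes split into those that resembled the cholesterol genes and those that did not. Of 13 members, 8 were higher and 1 lower in mutB1 than in FL (9.00% and 8.82% of all probe sets). In ΔSAP against FL 7 were higher and 0 lower (5.70% and 5.73% of all). At an unadjusted limma p under 0.05, 9 of the 13 were higher in ΔSAP and 1, Me1, was lower. The share of all probe sets at this cutoff was not counted. Acss2, which makes acetyl-CoA from acetate, stood at 10.95, 10.93 and 10.94 in ΔSAP, 11.54, 11.48 and 11.44 in mutB1, 10.37, 10.33 and 10.39 in FL and 11.40, 11.28 and 11.37 in control. The lines did not overlap, and ΔSAP lay midway between FL and mutB1. Its fold over FL was 2.18 in mutB1 and 1.49 in ΔSAP (limma adjusted p = 2.65e-08 and 9.6e-06). Lpin1, a phosphatidate phosphatase, stood at 10.24, 10.32 and 10.29 in ΔSAP, 10.16, 10.24 and 10.30 in mutB1, 9.71, 9.63 and 9.81 in FL and 10.57, 10.46 and 10.61 in control. Unlike most members it was highest in control, with every construct line below. It exceeded FL by 0.51 ± 0.06 in mutB1 and 0.57 ± 0.06 in ΔSAP.

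Desaturases and elongases gave smaller values. Fads1, the delta-5 desaturase, stood at 12.25, 12.23 and 12.25 in ΔSAP, 12.55, 12.53 and 12.54 in mutB1, 12.09, 12.11 and 12.15 in FL and 12.30, 12.27 and 12.29 in control. Its mutB1 arrays were clearly apart from the others. The difference from FL was 0.42 ± 0.03 in mutB1 (limma adjusted p = 3.66e-06), and that of ΔSAP, 0.13 ± 0.03, did not pass (adjusted p = 0.0166). Fads2, the delta-6 desaturase, rose by 0.24 ± 0.03 in mutB1 and 0.16 ± 0.03 in ΔSAP over FL. The stearoyl-CoA desaturase Scd1 rose by 0.41 ± 0.03 and 0.32 ± 0.03, and Scd2 by 0.21 ± 0.03 and 0.21 ± 0.03. A fit of the 2 compared lines alone ended the Scd2 calls, with adjusted p of 0.0134 and 0.0204. The elongase Elovl5 rose in mutB1 (0.24 ± 0.04) and stood at 0.04 ± 0.04 in ΔSAP, whereas Elovl6 rose in ΔSAP (0.30 ± 0.05) and stood at 0.17 ± 0.05 in mutB1 (limma adjusted p = 0.0408). Without FL replicate 1 or ΔSAP replicate 2 the Elovl6 difference in ΔSAP was 0.30 or 0.28 with limma adjusted p of 0.0115 or 0.0132. The Fads2 difference in ΔSAP no longer passed without any one of FL replicates 1 and 3 or the ΔSAP arrays (limma adjusted p of 0.011 to 0.0174). Both ΔSAP calls also ended with the replicate number as a block, at 0.0101 for Elovl6 and 0.0123 for Fads2.

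Acly, Acaca, Fasn, Me1 and Gpam did not move alike. Acly, which supplies cytosolic acetyl-CoA from citrate to both pathways, rose over FL by 0.29 ± 0.03 in mutB1 and 0.38 ± 0.03 in ΔSAP. Acaca, acetyl-CoA carboxylase, differed from FL by 0.12 ± 0.05 in mutB1 and -0.00 ± 0.05 in ΔSAP (limma adjusted p = 0.0891 and 0.984). All its mutB1 arrays lay above its FL arrays, as at 20.1% of all probe sets. A dimmer Acaca probe set gave 0.20 ± 0.06 in mutB1 and 0.06 ± 0.06 in ΔSAP (limma adjusted p = 0.0362 and 0.615). Fasn, fatty acid synthase, averaged 12.40 in ΔSAP, 12.17 in mutB1, 12.30 in FL and 12.33 in control. Its mutB1 arrays lay below all others, yet neither difference from FL passed, at -0.13 ± 0.04 in mutB1 and 0.10 ± 0.04 in ΔSAP (limma adjusted p = 0.0288 and 0.101). With an intensity trend and robust variance, or with only probe sets of mean log2 at least 6, the mutB1 difference of Fasn passed (adjusted p = 0.004 and 0.00917). Me1, malic enzyme, differed by 0.10 ± 0.05 and -0.18 ± 0.05, and neither passed, though the ΔSAP difference did with the same alternatives (adjusted p = 0.00658 and 0.00687). A dimmer Me1 probe set gave 0.09 ± 0.07 in mutB1 and -0.07 ± 0.07 in ΔSAP (limma adjusted p = 0.424 and 0.616). Gpam, the mitochondrial glycerol-phosphate acyltransferase, was lower in mutB1 than in FL, by a log2 difference of -0.29 ± 0.06 (limma adjusted p = 0.00307), and this call ended without mutB1 replicate 1 or 2 (adjusted p = 0.013 for each) and with median-centred arrays (-0.24, adjusted p = 0.0262).

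The exporters had log2 levels near or below the array medians, so their signal may be background. Abca1 stood at 5.81, 5.88 and 5.77 in ΔSAP, 6.38, 6.47 and 6.49 in mutB1, 5.63, 5.91 and 5.89 in FL and 6.27, 6.36 and 6.36 in control. The ΔSAP and FL arrays overlapped each other and lay below the mutB1 and control arrays. Abca1 differed from FL by 0.64 ± 0.07 in mutB1 (limma adjusted p = 8.8e-05) and by 0.01 ± 0.07 in ΔSAP (adjusted p = 0.951). Abcg1 stood at 6.57, 6.52 and 6.45 in ΔSAP, 6.55, 6.56 and 6.31 in mutB1, 6.46, 6.41 and 6.63 in FL and 6.51, 6.51 and 6.66 in control. Its 4 lines overlapped throughout.

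**Figure D3:**
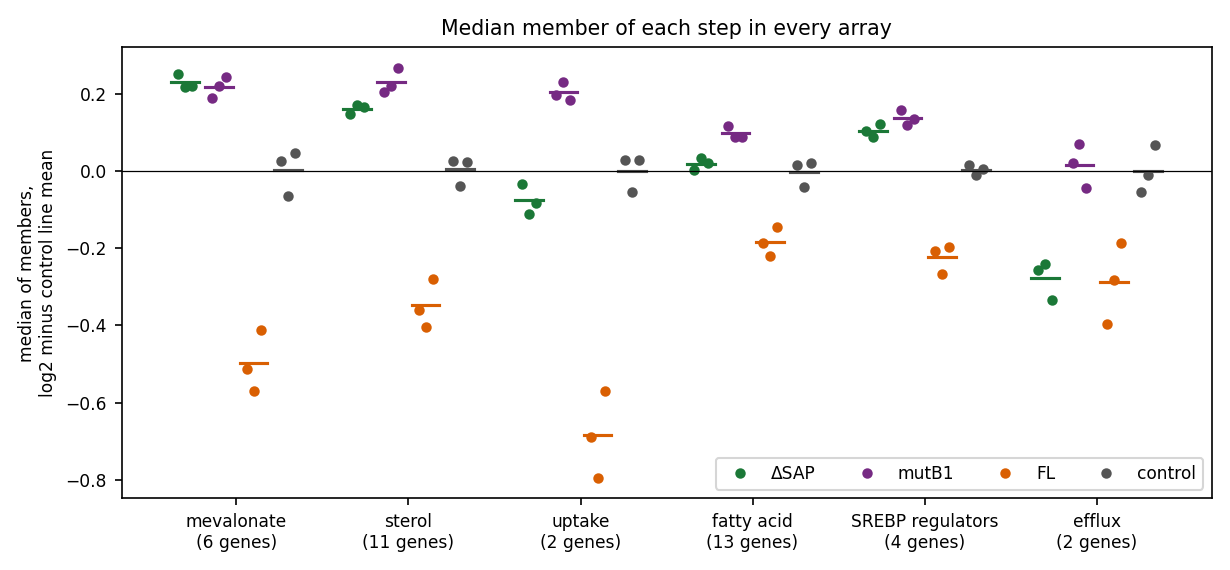
For every array the median over the members of a step is plotted, each member taken as its log2 value minus the mean of the control arrays, with bars at line means (3 arrays per line). FL arrays lie between -0.57 and -0.41 for the mevalonate step and between -0.22 and -0.15 for the fatty acid step, while for efflux the ΔSAP and FL arrays both lie below control.

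The comparison with the control line shows on which side of the baseline each construct line lay. FL was below control for most of the list. Of 38 members 29 were lower in FL than in control, where 10.4% of all probe sets were lower, and 2 were higher, where 9.61% were. Among the 17 mevalonate and sterol members 15 were lower, with a median log2 difference of -0.43. Msmo1 (-0.14 ± 0.04) and Sc5d (-0.12 ± 0.04) did not pass (limma adjusted p = 0.0369 and 0.0481). The largest differences were those of Acss2, -0.99 ± 0.04, Mylip, -0.97 ± 0.06, Pmvk, -0.88 ± 0.06, and Lpin1, -0.83 ± 0.06, of which the limma adjusted p lay between 4.99e-08 and 2.81e-06. Me1 (0.39 ± 0.05) and Scap (0.20 ± 0.03) were the members higher in FL than in control.

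The mutant lines lay above control for part of the cholesterol genes. In mutB1 against control 15 members were higher (5.83% of all probe sets) and 2 lower (6.89% of all), and 10 of the 17 mevalonate and sterol genes were among the higher ones. Me1 (0.49 ± 0.05), Tm7sf2 (0.46 ± 0.04) and Mvd (0.37 ± 0.07) led them, and Gpam (-0.43 ± 0.06) and Lpin1 (-0.31 ± 0.06) were lower. In ΔSAP against control 10 members were higher (6.96% of all probe sets) and 3 lower (7.83% of all). Cyp51 (0.46 ± 0.06), Msmo1 (0.41 ± 0.04), Idi1 (0.32 ± 0.04) and Insig1 (0.32 ± 0.05) had the largest rises. A dimmer Idi1 probe set gave 0.24 ± 0.09, which did not pass (limma adjusted p = 0.0948). Abca1 (-0.51 ± 0.07), Acss2 (-0.41 ± 0.04) and Srebf1 (-0.21 ± 0.04) were the lower members. The count of 15 for mutB1 became 7, 9, 7 and 6 without control replicate 2, control replicate 3, mutB1 replicate 2 and mutB1 replicate 3. That of 2 lower members became 1 without control replicate 1 or 3 or mutB1 replicate 1 or 2. The count of 10 for ΔSAP became 6, 5 and 6 without control replicates 1, 2 and 3, and 4 and 5 without ΔSAP replicates 2 and 3, and that of 3 lower members became 5 without control replicate 2 or FL replicate 3.

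**Figure D4:**
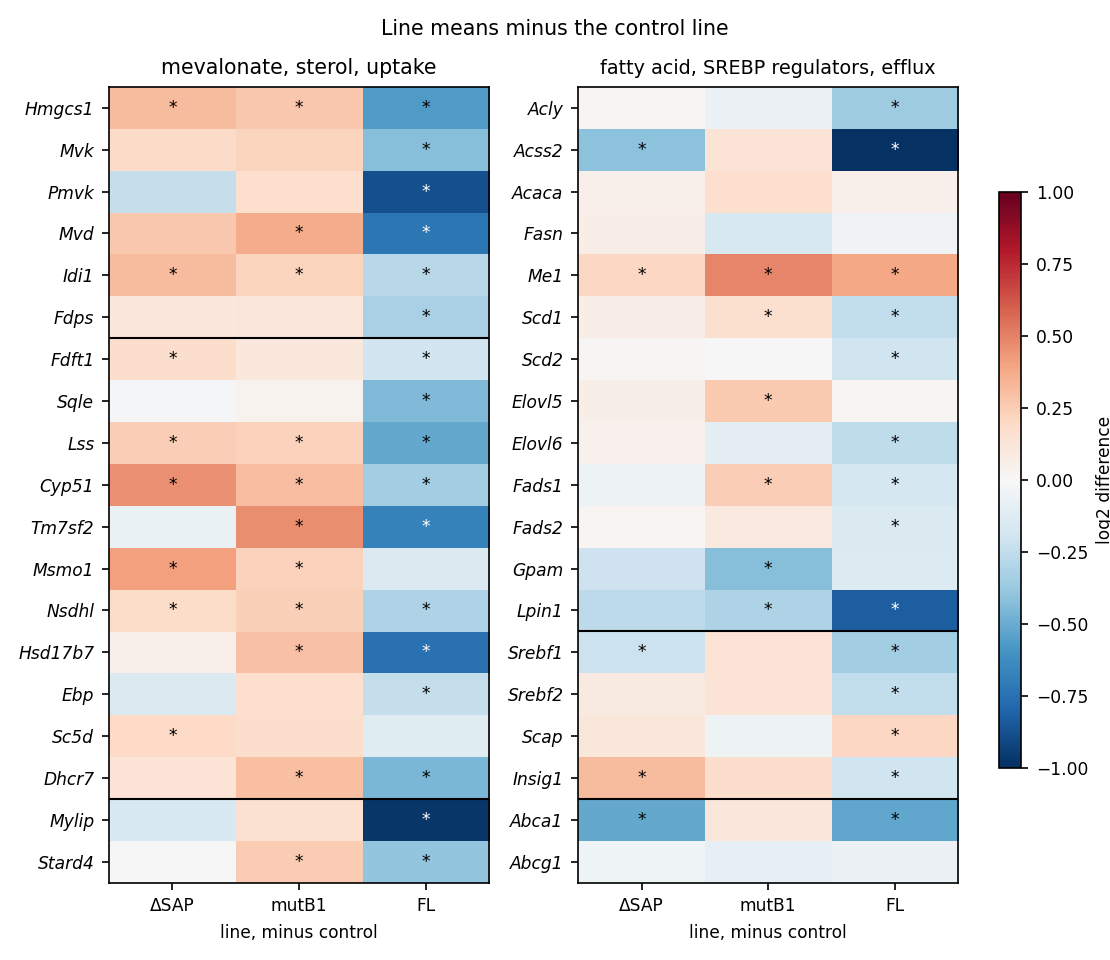
Colours give the log2 difference of the ΔSAP, mutB1 and FL line means from the control line mean for each of the 38 members, with red higher and blue lower than control, and asterisks mark limma adjusted p of at most 0.01. The FL column is blue for most cholesterol genes, down to -0.97 for Mylip, and red for Me1 at 0.39.

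The comparison of ΔSAP with mutB1 tests where the mutant lines differ from each other. Of 38 members 11 were lower in ΔSAP (8.00% of all probe sets) and 2 were higher (7.07% of all). The lower ones held 3 cholesterol enzymes, Tm7sf2 (-0.53 ± 0.04), Pmvk (-0.41 ± 0.06) and Ebp (-0.31 ± 0.04), while the other 14 mevalonate and sterol members did not pass. Acss2 differed by -0.55 ± 0.04 (limma adjusted p = 5.48e-06). The exporter Abca1 differed by -0.62 ± 0.07 (adjusted p = 0.000121), at levels near or below the array medians where the signal may be background. Srebf1 (-0.35 ± 0.04) and Mylip (-0.30 ± 0.06) were lower as well, as was Stard4 (-0.26 ± 0.05). Among fatty acid genes Fads1 (-0.30 ± 0.03), Me1 (-0.28 ± 0.05) and Elovl5 (-0.20 ± 0.04) were lower. A dimmer Me1 probe set gave -0.17 ± 0.07, which did not pass (limma adjusted p = 0.139). Fasn (0.23 ± 0.04) was higher, as was Scap (0.17 ± 0.03). The count of 2 higher members became 4 without FL replicate 3 and 1 without mutB1 replicate 2 or ΔSAP replicate 3.

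Other genes of these pathways were counted by list, beside the shares of all probe sets, which were 9.00% higher and 8.82% lower in mutB1 against FL and 5.70% higher and 5.73% lower in ΔSAP against FL. Over all 60 measured genes of these lists, 13 were higher and 11 lower in mutB1 than in FL, and 12 were higher and 6 lower in ΔSAP than in FL. The difference between these genes and the members was not tested, and both were chosen with earlier results of these data known. The isoprenoid branch uses mevalonate products for protein prenylation, dolichol and ubiquinone. It had 0 of 10 measured genes higher and 3 lower in mutB1 than in FL in limma. At an unadjusted limma p under 0.05, 2 were higher and 4 lower, a cutoff at which the share of all probe sets was not counted. In ΔSAP against FL 1 was higher and 1 lower. Nus1, a subunit of the dolichol synthase, was at -0.37 ± 0.05 and Pdss2, of ubiquinone synthesis, at -0.34 ± 0.08 in mutB1 against FL, whereas Rce1, a protease of prenylated proteins, was at -0.38 ± 0.04 and Dhdds, the partner of Nus1, at 0.24 ± 0.04 in ΔSAP against FL. Of 6 measured sterol sensing genes, 1 was higher and 1 lower in mutB1 than in FL, and 2 were higher and 1 lower in ΔSAP than in FL. Mbtps1, the protease that makes the first cut of the Srebf proteins, rose over FL by 0.29 ± 0.04 in mutB1 and 0.30 ± 0.04 in ΔSAP. Nr1h3, the liver X receptor alpha, was lower, with log2 differences from FL of -0.25 ± 0.04 in mutB1 and -0.30 ± 0.04 in ΔSAP.

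Of 14 measured genes of sterol transport and storage, 2 were higher and 1 lower in mutB1 than in FL, and 1 was higher and 2 lower in ΔSAP than in FL. Stard5, a sterol carrier related to Stard4, was 0.75 ± 0.03 higher in mutB1 than in FL and had a difference of -0.44 ± 0.03 in ΔSAP, so that the mutant lines lay on opposite sides of FL (ΔSAP minus mutB1 -1.19 ± 0.03, limma adjusted p = 1.84e-09). Osbpl2, an oxysterol-binding protein, was at 0.59 ± 0.03 in mutB1, and Tmem97, a sterol-regulated membrane protein, at -0.21 ± 0.03 in ΔSAP. Of 30 other fatty acid genes, 10 were higher and 6 lower in mutB1 than in FL, and 8 were higher and 2 lower in ΔSAP than in FL, so that the higher calls outnumbered the lower ones in both comparisons. The elongase Elovl7 averaged 9.67 in ΔSAP, 8.40 in mutB1, 9.42 in FL and 9.22 in control, a difference of -1.02 ± 0.05 from FL in mutB1. The acyl-CoA synthetase Acsl6 was at -0.86 ± 0.10 in mutB1 against FL. Aacs, which activates acetoacetate for sterol synthesis, rose over FL by 0.62 ± 0.05 in ΔSAP and 0.45 ± 0.05 in mutB1, and the desaturase relative Fads3 was lower, with differences from FL of -0.57 ± 0.04 in ΔSAP and -0.32 ± 0.04 in mutB1. The median over all 60 of these genes was -0.03 in mutB1 against FL and -0.01 in ΔSAP against FL, beside 0.43 and 0.39 for the members.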

How the data were processed

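Total RNA of 12 cultures, 3 per line, was labelled from 100 ng and hybridized to Affymetrix Mouse Gene 1.0 ST arrays, per the labels' protocols. The deposited log2 values were made by the authors with RMA in the affy package of Bioconductor 2.4, per the series design text, and R 2.10.0 is named in the submitters' processing notes. RMA quantile-normalizes arrays, so a shift shared by all genes cannot be seen, and it gives no detection call. The sources used here state no scan date, batch, probe set definition or genome build. The precision is limited by the number of arrays.

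Of 34760 probe sets, GEO's platform annotation of 2016 gave 21640 a single symbol, 1321 several and 11799 none. Entrez identifiers in a RefSeq table gave the current symbol of 21553. A gene was represented by its brightest probe set, and 4 members had more than 1. One limma 3.58.1 fit (R 4.3.3, lmFit and eBayes) covered 12 arrays with 4 line means and no covariates. Its steps were tested on simulated data. All members may be named. Values per array are given for the 2 members of the mevalonate, sterol and fatty acid steps with the largest differences in each comparison with FL, for the one of the rest with the smallest F-test p, and for all members of the smaller steps. Of each further list the 2 passing genes with the largest difference per comparison with FL are named. The members and lists were chosen with earlier results of these data known. Alternatives were leaving out each array, the replicate number as a block, median centring, repeated quantile normalization, fits of 2 lines, a variance trend, mean filters of 6 and 4, the mean of a gene's probe sets and the filters of the design text. Same-numbered arrays of different lines deviated from their line means with correlations of -0.20 to 0.17, over 0.1 in 2 of 18 pairs. These correlations over all probe sets gave little sign of pairing by number, but they cannot exclude pairing or a shared batch.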

Additional observations from a re-analysis of the deposited data

Results flagged for a closer look

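The difference from FL was not the same in the 2 mutant lines, by limma's test of ΔSAP minus mutB1 (adjusted p of at most 0.01), at 13 of 38 members, 11 lower and 2 higher in ΔSAP, where 8.00% of all probe sets were lower and 7.07% higher. The log2 difference was -0.62 for Abca1, -0.55 for Acss2, -0.53 for Tm7sf2, -0.41 for Pmvk, -0.35 for Srebf1, -0.31 for Ebp, -0.30 for Mylip, -0.30 for Fads1, -0.28 for Me1, -0.26 for Stard4 and -0.20 for Elovl5. It was 0.17 for Scap and 0.23 for Fasn. A dimmer Me1 probe set gave -0.17, which did not pass (limma adjusted p = 0.139). In the mutB1 line Mrtfa RNA was also lower than in ΔSAP, where the log2 difference of ΔSAP minus mutB1 was 0.63. Its part in these differences was not tested.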

How the results depend on the processing

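Of 76 member differences from FL, 60 kept direction and call under all 20 alternatives. Counts of members higher and lower, in this order, with the replicate block were 31 and 2 in mutB1 against FL, 25 and 0 in ΔSAP against FL, 2 and 10 in ΔSAP against mutB1, 7 and 3 in ΔSAP against control, 11 and 2 in mutB1 against control and 2 and 26 in FL against control. Leaving out 1 array gave 31 to 32 and 1 to 2, 25 to 27 and 0 to 0, 1 to 4 and 8 to 12, 4 to 10 and 2 to 5, 6 to 17 and 1 to 2, and 2 to 2 and 25 to 29 in the same order of comparisons. Median centring gave 1 lower in mutB1 against FL, 0 higher in ΔSAP against mutB1, 4 higher in ΔSAP against control, 7 higher and 1 lower in mutB1 against control and 1 higher in FL against control. Fits of 2 lines gave 30 higher and 1 lower in mutB1 against FL, 22 higher in ΔSAP against FL, 0 higher in ΔSAP against mutB1, 4 higher in ΔSAP against control and 4 higher and 1 lower in mutB1 against control. The trended robust fit gave 1 lower in ΔSAP against FL and 24 higher in mutB1 against control. A mean of at least 6 gave 1 lower in ΔSAP against FL, 4 higher in ΔSAP against mutB1 and 6 lower in ΔSAP against control. The filters of the design text left 6 higher in mutB1 against FL and 0 in each other count, by their 2-fold minimum. Elsewhere the cause was not tested.

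Direction reversed at 4 differences from FL, none of which had passed. Abcg1 in mutB1 ran from -0.074 to 0.051 when 1 array was left out, and became 0.0192 with median centring and 0.0192 with repeated quantile normalization. Abcg1 in ΔSAP ran from -0.034 to 0.076 and Abca1 in ΔSAP from -0.078 to 0.062 when 1 array was left out. Acaca in ΔSAP ran from -0.035 to 0.0199, and became 0.0319 with median centring, 0.000442 with quantile normalization and 0.0288 with the mean of its probe sets.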

Other observations

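Cholesterol genes also varied together between cultures of the same line. FL replicate 3 was the highest FL array at 17 of the 17 mevalonate and sterol members, beside 44.7% of all probe sets, and FL replicate 2 was the lowest at 15, beside 38.6%. Control replicate 2 was the lowest control array at 16 of the 17, beside 37.6% of all probe sets. Whether arrays of the same number shared a batch was not tested. In the ΔSAP and mutB1 lines no array was the lowest or the highest at more than 8 of the 17. The median SD of a member within a line was 0.03 in ΔSAP, 0.03 in mutB1, 0.06 in FL and 0.04 in control.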
